A study of Mus musculus with 9 samples.

Results

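The transcripts of the proteins that coat lipid droplets or take part in their assembly were followed through the differentiation of 3T3-L1 cells, a clonal mouse line of fibroblast-like preadipocytes that can be induced to store fat. The 10 genes, *Plin1*, *Plin2*, *Plin3*, *Plin4*, *Plin5*, *Cidec*, *Fitm1*, *Fitm2*, *Bscl2* and *G0s2*, were taken by name as genes of this function, with earlier results of these data known, and each has 1 entry among the 19094 genes of the files. RNA-seq was carried out on 3 groups of 3 samples. Day 0 cells were preadipocytes taken before induction, in DMEM with fetal bovine serum. Day 4 cells had received a cocktail of dexamethasone, IBMX and insulin for 2 days and then maintenance medium with insulin, and day 8 cells had spent 4 more days in fresh maintenance medium. No transgene or deletion is given for any group, all groups share the same line, and the cells of a stage were pooled. Day 4 against day 0 is called the early phase, day 8 against day 4 the late phase and day 8 against day 0 the whole process. Each sample held between 18216114 and 20452144 expected counts, so that 3 counts, used here as the detection floor, correspond to 0.147 to 0.165 CPM (counts scaled to the depth of the library).

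A lipid droplet is a store of triglyceride and sterol ester enclosed by a single layer of phospholipid. Perilipins cover this surface and control the access of lipases to it. Perilipin 1, encoded by *Plin1*, is the main coat protein of white adipocytes and holds back lipolysis until it is phosphorylated, whereas the products of *Plin2* and *Plin3* are found in most cell types. CIDEC concentrates at the contact of droplets and drives their fusion into the large droplet of the white adipocyte. Seipin, the product of *Bscl2*, and the FIT proteins of *Fitm1* and *Fitm2* reside in the endoplasmic reticulum, where droplets bud, and G0S2 binds and inhibits adipose triglyceride lipase, the product of *Pnpla2*.

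The labels name adipocytes as the cell type at all days, day 0 included. The 8 adipocyte marker genes checked (*Adipoq*, *Fabp4*, *Lpl*, *Cfd*, *Pparg*, *Cebpa*, *Lep* and *Retn*) summed to between 143 and 148 FPKM (fragments scaled to transcript length and to the depth of the library) in the day 0 samples, of which *Lpl* was the most abundant at 117 ± 3.95 FPKM (SD, n = 3). Their sum was 5427, 6385 and 7802 FPKM in the 3 samples of day 4 and between 8153 and 8920 FPKM at day 8, with *Fabp4* the most abundant gene. The extraction text of the labels speaks of dorsal root ganglia (DRG), but 8 neuronal markers summed to no more than 1.72 FPKM in any sample, and their most abundant gene, *Snap25*, did not exceed 1.17 FPKM. Markers of Schwann cells summed to at most 1.97 FPKM, of macrophages to at most 2.19 FPKM, of endothelial cells to at most 0.50 FPKM and of skeletal muscle to at most 1.82 FPKM. Fibroblast and preadipocyte markers, led by *Vim* at days 0 and 4 and by *Col1a1* at day 8, summed to between 3771 and 6468 FPKM and were therefore abundant at every day. The 5 brown adipocyte markers summed to at most 0.040 FPKM in the day 0 samples, to between 2.08 and 2.72 FPKM at day 4 and to between 11.1 and 13.8 FPKM at day 8. *Cox8b* was the most abundant of them at both later days, *Ucp1* was at or near 0 throughout, and their part in the droplet gene results was not tested.

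At day 0, 2 perilipins made up most of the coat transcript pool, *Plin2* at 45.5% and *Plin3* at 45.1%, with *Plin4* at 9.33%. By day 8 the pool was larger and *Plin1* had become its first component. *Cidec*, *Plin1* and *G0s2* rose from at most 27 counts per sample at day 0 to at least 3699 at day 8. *Fitm2*, *Plin4* and *Bscl2* rose several-fold from an appreciable level, *Plin2* rose 2.78-fold over the whole process, *Plin3* fell by 0.26 on the log2 scale, and *Plin5* and *Fitm1* stayed at 0 to 2 counts in every sample. The 10 genes together took 0.0470% ± 0.00159 of all expected counts at day 0 (SD, n = 3), a share that was 0.273% ± 0.0290 at day 4 and 0.311% ± 0.00920 at day 8. In bulk RNA of this kind, a larger share of cells with droplets and more RNA of a gene in each cell cannot be told apart.

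**Figure D1:**
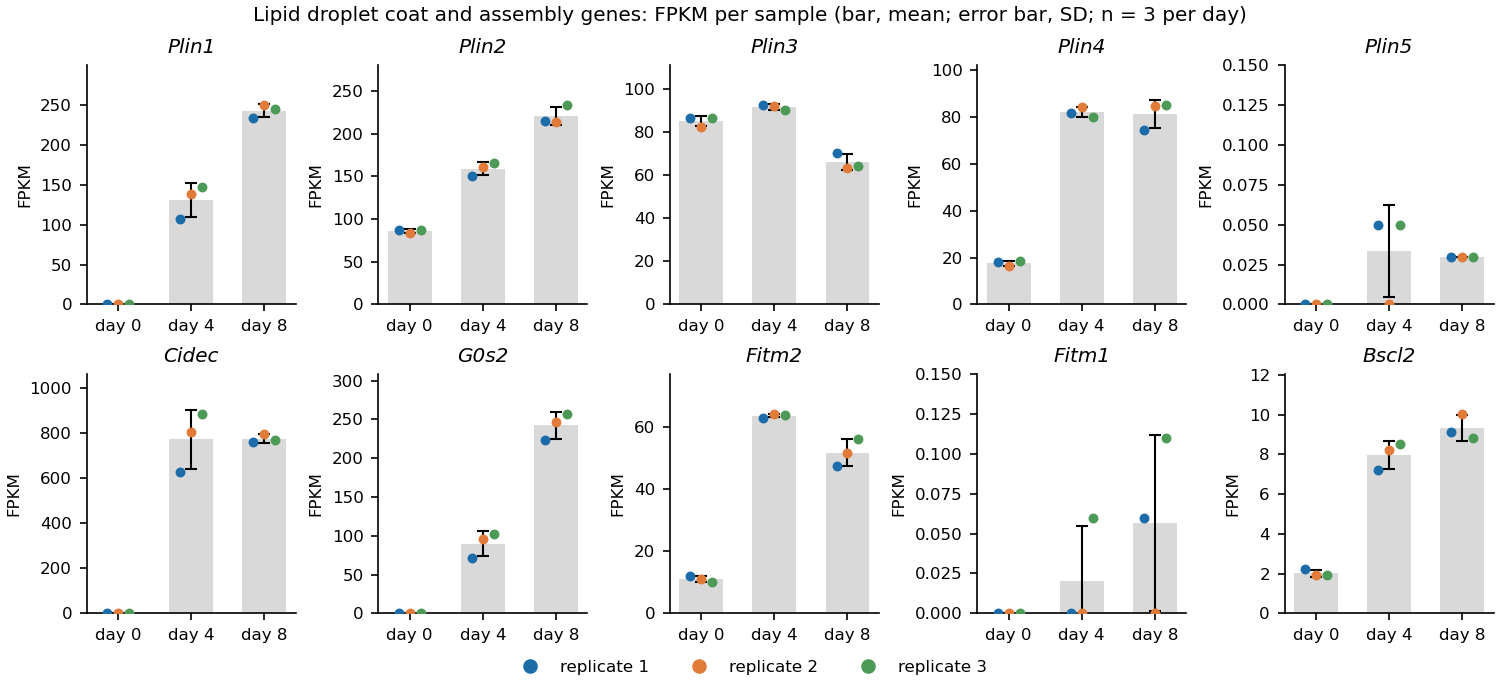
Level of each of the 10 genes in FPKM (linear axis, scaled separately for each gene) in the 9 samples, with replicates as coloured points, the mean of each day as a bar and the SD as the error bar (n = 3). *Plin1*, *Cidec* and *G0s2* lie below 1 FPKM at day 0, *Plin4* and *Cidec* overlap between day 4 and day 8, and *Plin5* and *Fitm1* stay at or below 0.11 FPKM.

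The sequences in front of the 3 genes that rose most are printed because these genes moved together in the early phase. They are the 250 bases before the annotated start of transcription in RefSeq (mouse build GRCm38.p6), read 5′ to 3′ on the strand of the gene, and all 3 genes lie on the minus strand. Capitals mark matches to TTGCNNAA, a form of the C/EBP site, which was searched on both strands. *Plin1* has 1 RefSeq start here, at chr7:79732777-79733026, and holds 2 matches. *Cidec* has 2 starts, and the one shown, at chr6:113434765-113435014, is the one with a match. *G0s2*, at chr1:193273189-193273438, has no match in this window.
Plin1: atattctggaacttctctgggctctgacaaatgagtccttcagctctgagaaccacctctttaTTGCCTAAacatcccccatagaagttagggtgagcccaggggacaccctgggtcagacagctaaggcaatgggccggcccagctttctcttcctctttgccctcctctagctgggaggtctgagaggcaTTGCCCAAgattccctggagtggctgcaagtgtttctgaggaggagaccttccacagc
Cidec: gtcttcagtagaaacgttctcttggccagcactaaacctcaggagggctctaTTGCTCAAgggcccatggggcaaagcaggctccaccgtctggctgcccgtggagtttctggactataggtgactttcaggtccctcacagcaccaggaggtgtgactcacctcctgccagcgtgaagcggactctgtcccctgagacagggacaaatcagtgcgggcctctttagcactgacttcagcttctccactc
G0s2: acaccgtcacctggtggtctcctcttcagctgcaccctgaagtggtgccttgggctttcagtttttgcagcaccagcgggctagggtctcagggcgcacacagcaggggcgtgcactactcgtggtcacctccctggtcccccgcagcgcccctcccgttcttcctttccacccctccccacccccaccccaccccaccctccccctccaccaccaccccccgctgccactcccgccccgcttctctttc
The first capital base lies at positions -187 and -58 from the start in *Plin1* and at -198 in *Cidec*. Among 32851 RefSeq promoter windows of 300 bases (250 before and 50 after the start), 10.8% hold TTGCNNAA on either strand. Of the 10 genes, *Plin1* and *Cidec* are the 2 with a match in any of their 14 windows. None of the 14 windows held the other motifs searched: a pair of AGGNCA repeats 1 base apart, the DR1 element bound by PPARγ with RXRα (0.381% of all windows), TGACGTCA, the cyclic AMP response element (1.79%), AGAACA and TGTTCT 3 bases apart, the glucocorticoid response element (0.00913%), and TATAAA, the TATA box (13.6%). GC content of the bases shown was 54.0% in *Plin1*, with 1 CpG, and 56.8% in *Cidec*, with 6 CpG, against a median of 52.4% and 6 CpG over all windows, while *G0s2* had 67.2% and 11 CpG. These matches describe the sequence and were not tested for binding.

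Among the coat genes, *Plin1* stood at 0.08, 0.21 and 0.24 FPKM in the 3 samples of day 0, which rest on 3, 7 and 9 counts. It reached 106.95, 138.28 and 147.01 FPKM at day 4 and 233.89, 249.83 and 245.24 FPKM at day 8. All samples of a later day lay above all samples of the earlier one. In edgeR's quasi-likelihood F-test across all 13154 genes that passed its filter, *Plin1* rose in the early phase with a log2 fold change of 9.62 (SE 0.19, adjusted p = 5.2e-16). Over the whole process the log2 fold change was 10.56 (SE 0.18, adjusted p = 1.6e-16). Since the day 0 level rests on 19 counts in all, the fold was also taken from summed counts per library depth: it was 764 at day 4 (95% exact interval 489 to 1270) and 1421 at day 8 (910 to 2361), intervals that cover counting error alone. The late phase added a log2 fold change of 0.94 (SE 0.09, adjusted p = 2.3e-07), so *Plin1* at day 4 stood at 53.8% ± 8.67 of its day 8 mean (SD, n = 3). Of the genes with an FPKM above 0, 17.6% lay below it at day 0 and 98.3% at day 8, on average over the samples.

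*Plin2*, whose product coats droplets in nearly all cells, was already abundant before induction, at 86.74, 83.25 and 87.60 FPKM. It stood at 150.59, 161.03 and 166.10 FPKM at day 4 and at 215.05, 213.75 and 233.56 FPKM at day 8. The 3 days did not overlap. *Plin2* rose in the early phase by 0.96 on the log2 scale (SE 0.05, adjusted p = 1.7e-10), in the late phase by 0.52 (SE 0.05, adjusted p = 8.6e-07) and over the whole process by 1.47 (SE 0.05, adjusted p = 8.3e-13). Only the whole process exceeded the 2-fold threshold.

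*Plin3*, whose product moves between the cytosol and nascent droplets, was as abundant as *Plin2* at day 0. Its level was 86.39, 82.07 and 86.51 FPKM at day 0, 92.33, 91.95 and 89.97 FPKM at day 4, and 70.25, 63.37 and 64.04 FPKM at day 8. The day 4 samples were the highest and the day 8 samples the lowest, without overlap. *Plin3* fell by 0.43 on the log2 scale in the late phase (SE 0.05, adjusted p = 2.5e-06) and by 0.26 in the whole process (SE 0.05, adjusted p = 1.9e-04). Its early log2 fold change was 0.17 (SE 0.05, adjusted p = 0.0048), which missed the threshold with library size alone in place of TMM factors (0.11, adjusted p = 0.0638), with limma on log2(FPKM + 1) (0.10, adjusted p = 0.0567) and with limma on log2(FPKM + 0.1) (0.11, adjusted p = 0.0576). Thus the 2 perilipins that were level at day 0 had separated by day 8: the ratio of *Plin2* to *Plin3* FPKM was 1.01 ± 0.00552 at day 0 (SD, n = 3), then 1.74 ± 0.108 at day 4 and 3.36 ± 0.293 at day 8.

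*Plin4*, which encodes a coat protein of small nascent droplets in adipocytes, exceeded 2-fold in the early phase, as did *Plin1*. The day 0 samples held 18.08, 16.41 and 18.32 FPKM. They were followed by 81.77, 84.16 and 79.78 FPKM at day 4 and by 74.17, 84.49 and 84.94 FPKM at day 8. Day 4 and day 8 overlapped. In the early phase *Plin4* rose by 2.28 on the log2 scale (SE 0.07, adjusted p = 4.1e-14), while its late log2 fold change was 0.03 (SE 0.06, adjusted p = 0.688). The day 4 level was 101% ± 2.70 of the day 8 mean (SD, n = 3). *Hdgfrp2* overlaps *Plin4* on the other strand and held 43.5, 37.4 and 30.5 FPKM on average at days 0, 4 and 8, above *Plin4* at day 0. The sources used here do not say whether strand was used in counting. However, 0 of the 5100 short stretches of *Plin4* transcripts that were searched occurred in transcripts of any other gene.

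*Plin5*, which links droplets to mitochondria in oxidative tissue, gave 0 counts in all day 0 samples, 2, 0 and 2 counts at day 4, and 1 count in each sample at day 8. These values lie below the floor of 3 counts per library, so no fold is given. The gene next to it, *Plin4*, was abundant in the same libraries, and the 50-base stretches of *Plin5* transcripts are not shared with any other gene of GENCODE vM21.

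**Figure D2:**
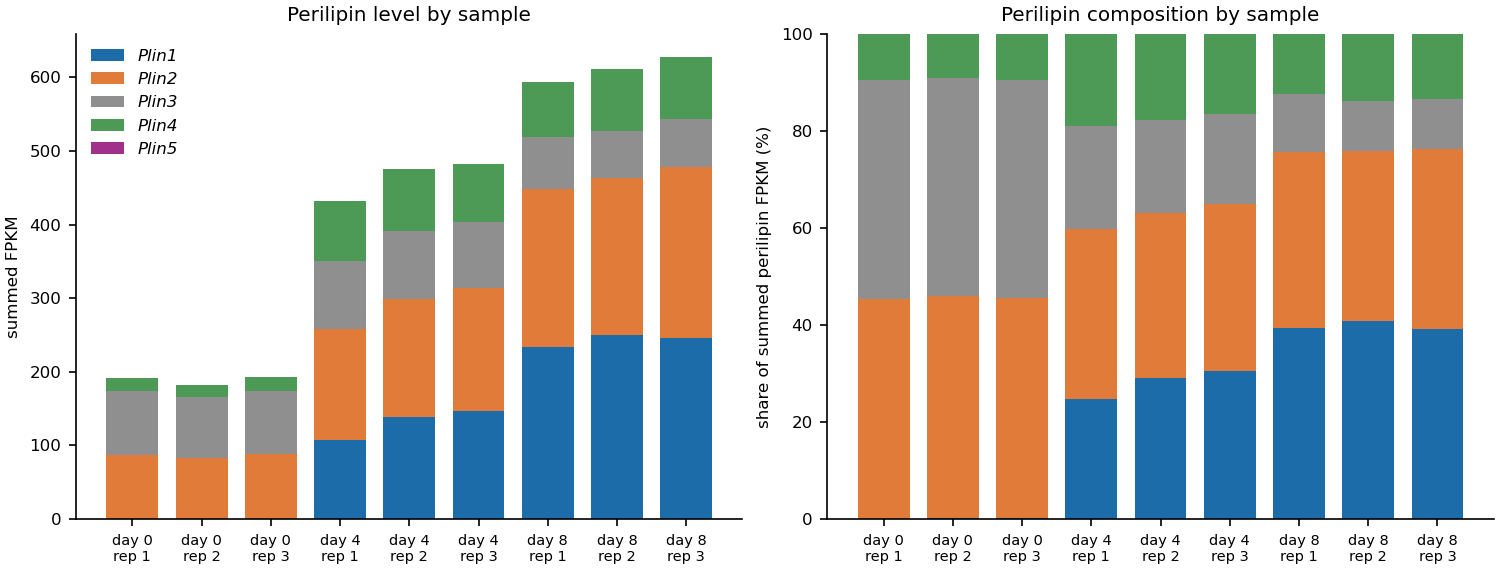
Perilipin transcripts in each of the 9 samples, as summed FPKM (left) and as a percent of the 5-gene sum (right), with colours for the 5 genes. The sum rises from 189 to 611 FPKM on average, the *Plin3* share falls from 45.1% to 10.8% and the *Plin1* share goes from 0.0939% to 39.8%, while *Plin5* is too low to be seen.

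The composition of the coat pool follows from these levels. The 5 perilipins summed to 189 ± 5.84 FPKM at day 0 (SD, n = 3), to 463 ± 27.7 FPKM 4 days later and to 611 ± 17.2 FPKM at day 8. At day 0 *Plin2* took 45.5% ± 0.212 and *Plin3* 45.1% ± 0.138 of that sum, with *Plin4* at 9.33% ± 0.267 and *Plin1* at 0.0939% ± 0.0454. At day 4 *Plin2* was still first with 34.4% ± 0.506, followed by *Plin1* with 28.1% ± 2.96, *Plin3* with 19.8% ± 1.43 and *Plin4* with 17.7% ± 1.21. The share of *Plin3* exceeded that of *Plin4* in each of the 3 day 4 samples. At day 8 *Plin1* led with 39.8% ± 0.951, ahead of *Plin2* with 36.1% ± 1.13, *Plin4* with 13.3% ± 0.693 and *Plin3* with 10.8% ± 0.902. The share of *Plin2* was thus lower at both later days than at day 0, although its own level was higher.

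Among the genes of droplet growth, *Cidec* was the most abundant of the 10 from day 4 on. Its level was 0.66, 0.62 and 0.77 FPKM at day 0, from 23, 19 and 27 counts. It was 627.82, 806.01 and 885.98 FPKM at day 4, and 762.12, 797.99 and 768.83 FPKM at day 8. The later days overlapped, and both lay far above day 0. *Cidec* rose in the early phase with a log2 fold change of 10.20 (SE 0.16, adjusted p = 3.7e-17), and its late log2 fold change was 0.05 (SE 0.09, adjusted p = 0.660). From summed counts the fold over day 0 was 1128 at day 4 (95% exact interval 891 to 1450) and 1133 at day 8 (896 to 1457). *Cidec* held 0.337% ± 0.0322 of the summed FPKM of the 10 genes at day 0 (SD, n = 3), then 55.1% ± 2.61 at day 4 and 45.9% ± 1.04 at day 8. The ratio of *Cidec* to *Plin1* was 5.91 ± 0.104 at day 4 and 3.20 ± 0.0617 at day 8, with no overlap between the days. Without the sample day 4 replicate 1 the late log2 fold change of *Cidec* was -0.08 (adjusted p = 0.234), against 0.16 (adjusted p = 0.112) without day 4 replicate 3.

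Day 4 replicate 1 was the lowest of the 3 day 4 samples for *Plin1*, *Cidec* and *G0s2*, and replicate 3 the highest. The sum of the 8 adipocyte markers followed the same order, at 5427 FPKM in replicate 1, 6385 in replicate 2 and 7802 in replicate 3, and the part of this in the spread of the droplet genes was not tested. *Plin2* and *Bscl2* ran in the same order as the markers, *Plin3* ran the opposite way, and for *Plin4* and *Fitm2* the highest day 4 sample was replicate 2.

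Among the assembly genes of the endoplasmic reticulum, *Fitm2*, which is needed for normal droplet budding, held 11.94, 10.91 and 10.20 FPKM at day 0, 63.06, 64.25 and 63.88 FPKM at day 4, and 47.58, 51.72 and 56.17 FPKM at day 8. The day 4 samples were the highest and there was no overlap. *Fitm2* rose in the early phase with a log2 fold change of 2.60 (SE 0.07, adjusted p = 3.6e-14) and fell by 0.25 in the late phase (SE 0.06, adjusted p = 0.0039), which left it at 2.35 above day 0 (SE 0.07, adjusted p = 1.2e-13). A gene on the other strand, *2310001K24Rik*, overlaps *Fitm2* and shares 4.59% of the stretches of *Fitm2* transcripts. Since the use of strand in counting is not stated, reads of these shared stretches cannot be told apart. The overlapping gene itself was listed at 0.173, 1.17 and 1.05 FPKM on average at days 0, 4 and 8, with an early log2 fold change of 2.83 (SE 0.78, adjusted p = 0.0042). Its counts were low, at 0, 4.05 and 0 in the day 0 samples and between 8.36 and 11.46 at day 4.

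*Bscl2*, which encodes seipin, the protein lost in a congenital lipodystrophy, was the lowest of the 8 tested genes at day 8. Its 9 values were 2.23, 1.91 and 1.94 FPKM at day 0, 7.20, 8.25 and 8.54 FPKM at day 4, and 9.15, 10.04 and 8.81 FPKM at day 8. Each day lay above the one before it. *Bscl2* rose in the early phase with a log2 fold change of 1.90 (SE 0.11, adjusted p = 1.7e-10) and in the whole process with 2.14 (SE 0.11, adjusted p = 3.3e-11). The late log2 fold change was 0.23 (SE 0.09, adjusted p = 0.0446), a change that missed the adjusted p threshold in 11 of 20 alternatives. Among these were the replicate number as a block (adjusted p = 0.0546), library size alone (0.104), DESeq2 (0.0925) and limma on log2(FPKM + 1) (0.0545), and the highest was 0.166 without day 8 replicate 2. *Gng3* overlaps *Bscl2* on the other strand at 0.40 FPKM or less on average, *AC129217.1* overlaps it on the same strand in GENCODE vM21, and 10.5% of the 50-base stretches of *Bscl2* transcripts occur in other genes, the largest share among the 10 genes. The mean transcript length that the quantification assigned to *Bscl2* lay between 1572 and 1772 bases at day 0 and between 1456 and 1560 bases at the later days, so its FPKM rose somewhat more than its counts. *Fitm1*, the form known from skeletal muscle, gave 0 counts at day 0, 0, 0 and 1 count at day 4 and 1, 0 and 2 counts at day 8, below the floor in every library.

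*G0s2*, the inhibitor of the first lipase of lipolysis, was the one gene of the 10 that passed the 2-fold threshold in the late phase. It was listed at 0.42, 0.27 and 0.36 FPKM at day 0, from 7, 4 and 6 counts. Values of 71.39, 95.93 and 101.76 FPKM followed at day 4, and 222.79, 246.51 and 256.93 FPKM at day 8. The days were fully separated. *G0s2* rose in the early phase by 8.04 on the log2 scale (SE 0.22, adjusted p = 2.9e-14), in the late phase by 1.48 (SE 0.09, adjusted p = 3.2e-09) and over the whole process by 9.52 (SE 0.20, adjusted p = 1.5e-15). The fold over day 0 from summed counts was 257 at day 4 (95% exact interval 160 to 441) and 693 at day 8 (433 to 1191). Day 4 samples held 37.1% ± 6.66 of the day 8 mean (SD, n = 3), the lowest share among the 8 tested genes. *Lamb3* overlaps *G0s2* on the other strand and was itself listed at 1.98 FPKM on average at day 8. Of the 822 stretches of *G0s2* transcripts that were searched, 0 occurred in transcripts of any other gene.

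**Figure D3:**
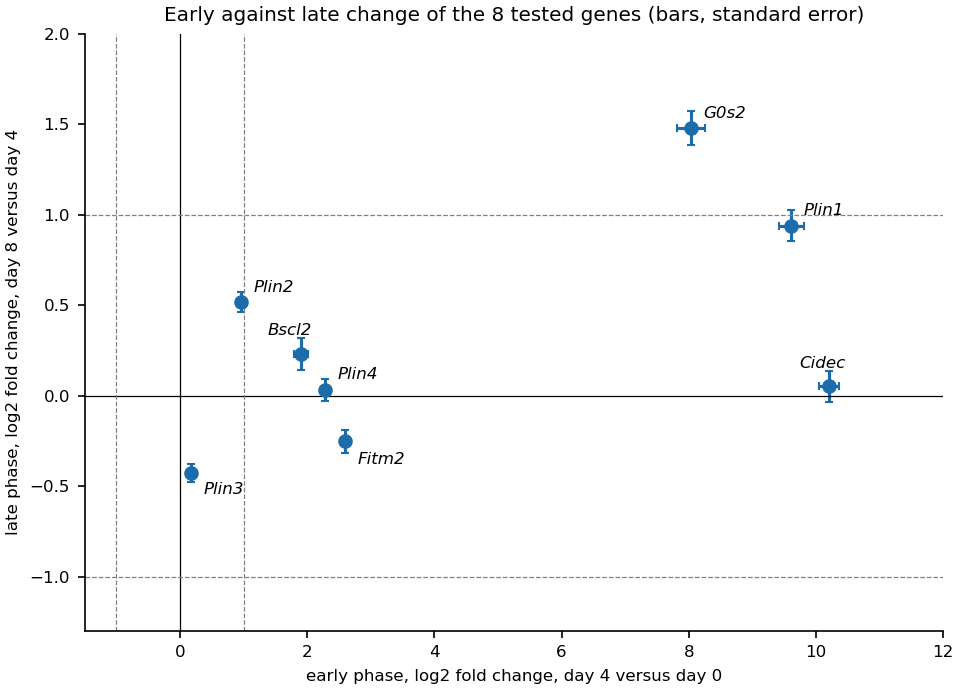
Log2 fold change of the early phase (horizontal) against that of the late phase (vertical) for the 8 tested genes, with points for the edgeR estimates, bars for their standard errors and dashed lines at a 2-fold change. The vertical axis spans a smaller range than the horizontal one, *G0s2* alone lies above the upper dashed line, and *Plin3* and *Fitm2* lie below 0 in the late phase.

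Of the 8 genes that passed the filter, 6 were higher by more than 2-fold in the early phase and 0 lower, where 9.77% of all tested genes were higher and 7.98% lower. In the late phase 1 was higher and 0 lower, against 4.24% and 2.81% of all tested genes. In the whole process 7 were higher and 0 lower, against 10.3% and 7.7%. By adjusted p alone, without a fold threshold, 8 were higher and 0 lower in the early phase (35.5% and 33.7% of all tested genes), 4 were higher and 2 lower in the late phase (22.5% and 22.7%), and 7 were higher and 1 lower in the whole process (34.8% and 36.2%). These last counts were the same at an unadjusted p under 0.05, and DESeq2, edgeR's exact test and limma also found 0 genes lower by more than 2-fold. The median log2 fold change of the 8 genes was 2.44 in the early phase, 0.14 in the late phase and 2.33 in the whole process, where the medians of all tested genes were 0.02, -0.01 and -0.02. *Plin1* and *G0s2* passed the filter through their later days, so these counts describe the 8 genes and do not speak for *Plin5* and *Fitm1*.

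The signed early log2 fold change minus the signed late one was tested in the same edgeR model. This difference was above 0 for all 8 genes, where it was above 0 for 30.4% of all tested genes and below 0 for 26.2% at an adjusted p under 0.05. Because it keeps the sign, a late fall adds to it, as in *Plin3*, whose late change (-0.43) was larger in size than its early one (0.17), and in *Fitm2*. It was 10.15 for *Cidec* (SE 0.20, adjusted p = 7.6e-16), 8.67 for *Plin1* (SE 0.25, adjusted p = 1.1e-13) and 6.56 for *G0s2* (SE 0.32, adjusted p = 4.6e-11). It was smallest for *Plin2*, at 0.44 (SE 0.09, adjusted p = 7.2e-04), and *Plin3*, at 0.60 (SE 0.08, adjusted p = 1.3e-05). For *Fitm2*, *Plin4* and *Bscl2* the difference was 2.85, 2.25 and 1.67.

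Droplet coat genes act together with the lipases they hold back and the enzymes that fill the droplet. A list of 18 partners in storage, lipolysis and assembly was followed, which also held *Abhd5*, *Hilpda*, *Cidea*, *Cideb*, *Ldaf1*, *Cav1*, *Cavin1*, *Rab8a* and *Rab18*. From this list 17 genes passed the filter (*Cidea* did not, at 0.26 FPKM or less). Of these, 11 were higher by more than 2-fold in the early phase, 3 in the late phase and 12 in the whole process, and edgeR found 0 lower by more than 2-fold in any, as did DESeq2 and limma on all samples. The shares of all tested genes that were higher were 9.77%, 4.24% and 10.3% in the same order. At an unadjusted p under 0.05 alone, 13, 6 and 17 were higher and 0, 7 and 0 were lower, where 36.7%, 25.8% and 35.8% of all tested genes were higher and 34.9%, 26.3% and 37.2% lower. Their median log2 fold change was 1.90, 0.02 and 1.67 in the 3 comparisons. The 4 largest changes over the whole process were those of *Lipe*, hormone-sensitive lipase (5.48, SE 0.10, adjusted p = 2.8e-16), *Dgat2*, which makes triglyceride (5.25, SE 0.09, adjusted p = 2.0e-16), *Mgll*, monoglyceride lipase (5.21, SE 0.13, adjusted p = 8.8e-15), and *Pnpla2*, adipose triglyceride lipase (4.58, SE 0.08, adjusted p = 2.8e-16). *Pnpla2* held 18.7 ± 0.710 FPKM at day 0 (SD, n = 3), then 506 ± 60.4 at day 4 and 415 ± 13.0 at day 8. *Abhd5*, its coactivator, which perilipin 1 binds, held 20.01 ± 1.02, 71.4 ± 5.20 and 58.9 ± 1.18 FPKM (SD, n = 3). The 3 genes past 2-fold in the late phase were *Mgll* (1.62, SE 0.09, adjusted p = 5.2e-10), *Hilpda*, another inhibitor of *Pnpla2*'s product (1.12, SE 0.11, adjusted p = 5.4e-07), and *Cideb*, a relative of *Cidec* listed at 0.55 FPKM or less (1.26, SE 0.46, adjusted p = 0.0353). The call of *Hilpda* was lost in 1 of 20 alternatives, where its log2 fold change was 0.99. The call of *Cideb* was lost in 9 of 19 alternatives, among them DESeq2 (adjusted p = 0.109), no filter on low counts (0.0643) and each of 5 fits that left out a sample, with the highest adjusted p without day 4 replicate 1 (0.119).

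Ratios within a sample set these partners beside the coat genes. The ratio of *G0s2* to *Pnpla2* FPKM, inhibitor to lipase, was 0.0187 ± 0.00391 at day 0 (SD, n = 3), then 0.177 ± 0.0120 at day 4 and 0.583 ± 0.0265 at day 8, without overlap. That of *Plin1* to *Abhd5* was 0.00892 ± 0.00440, 1.82 ± 0.178 and 4.12 ± 0.0760. *Plin1* was thus below its binding partner at day 0 and above it at both later days. For coactivator and lipase, the ratio of *Abhd5* to *Pnpla2* was 1.07 ± 0.0468 at day 0 and 0.142 on both later days, with an SD of 0.00929 at day 4 and of 0.00188 at day 8. The ratio of *Plin1* to *Plin2* passed from 0.00206 ± 0.000993 to 0.818 ± 0.0943 and 1.10 ± 0.0607. *Fitm2* to *Dgat2* gave 3.43 ± 0.387, 0.483 ± 0.0459 and 0.455 ± 0.0278 in the order of the days. For *Abhd5* to *Pnpla2* and for *Fitm2* to *Dgat2*, the samples of days 4 and 8 overlapped. With 3 samples against 3 an exact permutation test of such a ratio cannot go below p = 0.10, so none was run.

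**Figure D4:**
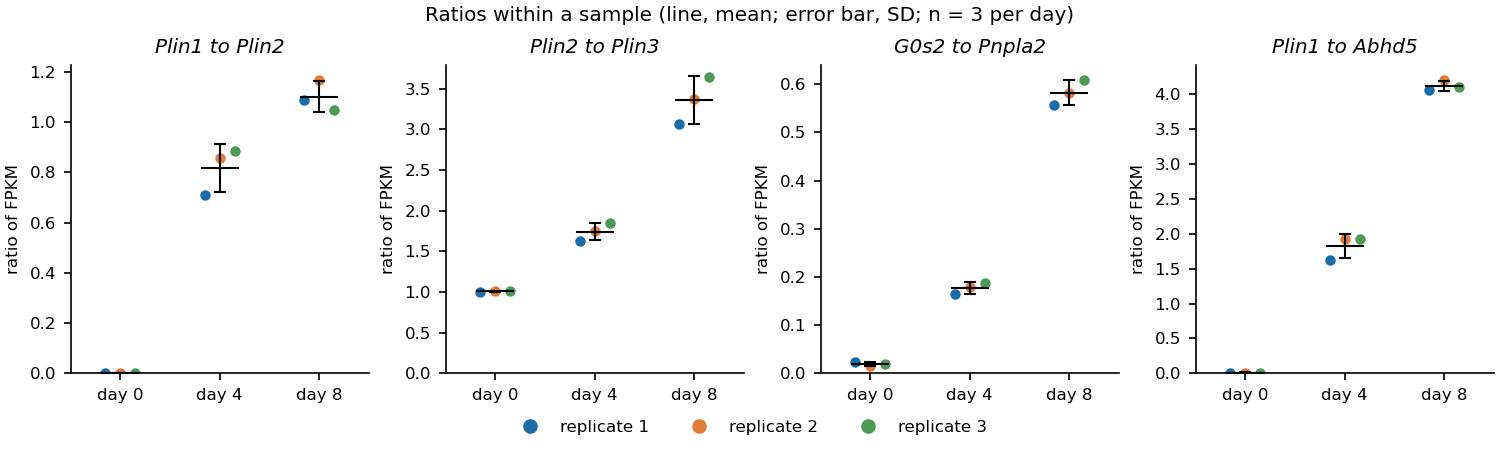
Ratios of FPKM within each of the 9 samples on linear axes for *Plin1* to *Plin2*, *Plin2* to *Plin3*, *G0s2* to *Pnpla2* and *Plin1* to *Abhd5*, with replicates as coloured points, the day mean as a horizontal line and the SD as the error bar (n = 3). Each of these 4 ratios is separated between all 3 days, and *G0s2* to *Pnpla2* goes from 0.0187 to 0.177 and 0.583.

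A further list held proteins found on droplets but not dedicated to storage. Of these 24 genes, all tested, 3 were higher by more than 2-fold in the early phase, 1 in the late phase and 3 in the whole process, and edgeR, DESeq2 and limma on all samples each found 0 lower by more than 2-fold. Without day 4 replicate 1 or without day 8 replicate 1, edgeR found 1 lower in the late phase among the genes of both lists, *Hsd17b13*, named here after its values were seen (-1.01, adjusted p = 0.0340 and -1.11, adjusted p = 0.0321, against -0.87, adjusted p = 0.0421 on all samples). These counts are near the shares of all tested genes that were higher, which were 9.77%, 4.24% and 10.3%. At an unadjusted p under 0.05 alone, 11, 9 and 11 of the 24 were higher and 7, 7 and 5 lower, beside the shares of all tested genes given for the partners. Their median log2 fold change was 0.07, 0.09 and 0.04. The 3 genes were *Pnpla3*, a lipase relative of *Pnpla2* (adjusted p = 2.9e-11 over the whole process), *Mettl7b* (log2 fold change 4.99, SE 0.29, adjusted p = 2.3e-10) and *Aifm2* (2.09, SE 0.08, adjusted p = 5.8e-13). *Pnpla3* was listed at 0, 0 and 0.02 FPKM at day 0 and at 3.89, 5.96 and 4.82 FPKM at day 8. Its day 0 samples together held 1 count after rounding, against 1382 at day 8, so the size of the rise is known only within a wide counting interval (243-fold to 53594-fold, exact binomial, 95%). *Acsl3*, an acyl-CoA ligase of nascent droplets, fell by 0.71 in the early phase (SE 0.08, adjusted p = 1.2e-06) and rose by 0.67 in the late phase (SE 0.08, adjusted p = 7.2e-06).

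**Figure D5:**
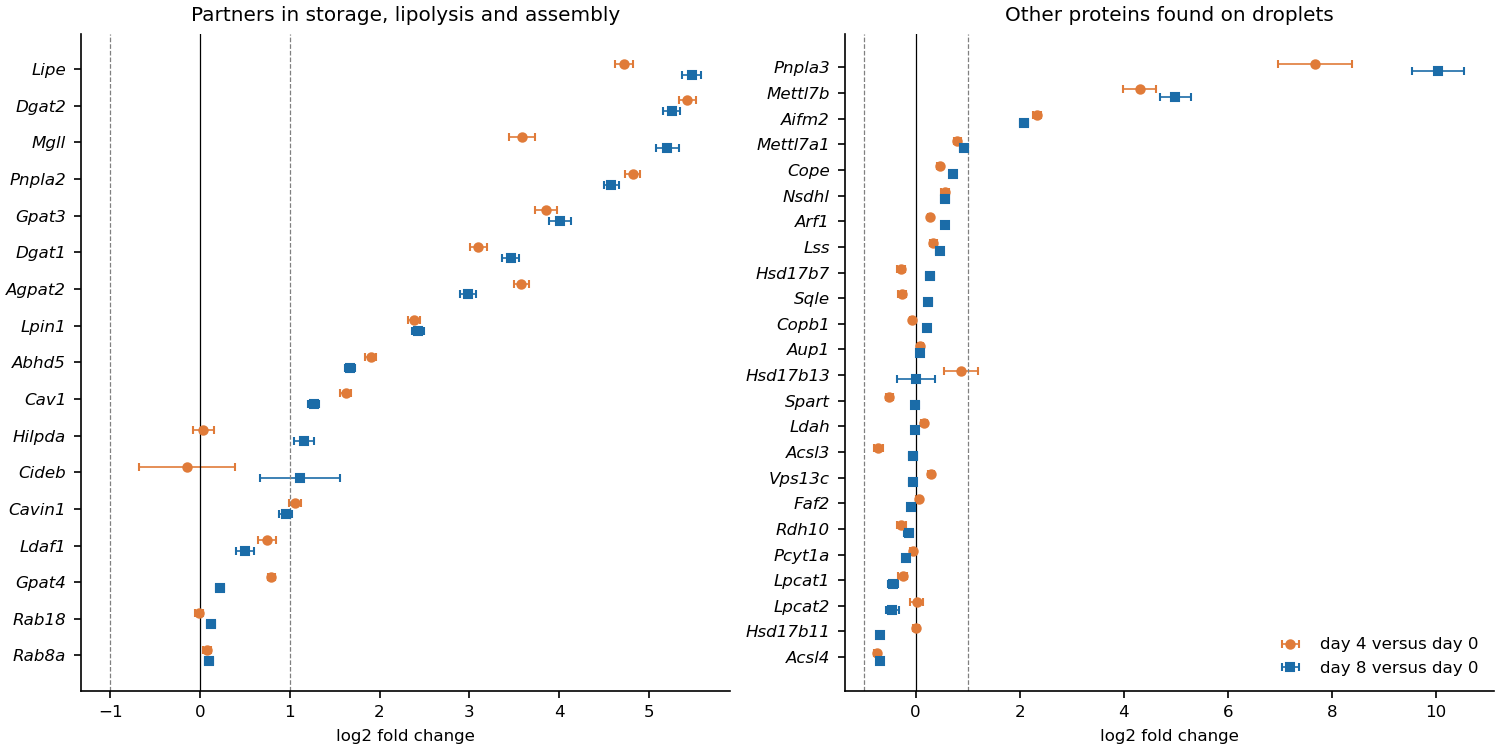
Log2 fold change of day 4 (circles) and day 8 (squares) against day 0 for 17 partners in storage, lipolysis and assembly (left) and for 24 other proteins found on droplets (right), with standard errors as bars and dashed lines at 2-fold. The horizontal axes differ, 12 of the 17 genes on the left and 3 of the 24 on the right pass 2-fold and the adjusted p threshold at day 8.

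Transcription factors known to act on adipocyte genes gave the following values. *Pparg*, the master regulator of adipogenesis, held 11.5 ± 0.161, 93.2 ± 6.41 and 130 ± 9.13 FPKM at days 0, 4 and 8 (SD, n = 3), with a log2 fold change of 3.00 early and 0.52 late. *Cebpa* changed by 3.96 early and 0.54 late. *Cebpb* changed by 0.25 and 0.39, and *Cebpd* by 2.19 and -2.44, which brought it 0.25 below day 0 (adjusted p = 0.0026). *Rxra*, the partner of *Pparg*, changed by 1.17 and -0.81, *Ppard* by 0.88 and 0.15, and *Srebf1* by 1.35 and -0.23. *Mlxipl* rose in the early phase (adjusted p = 3.0e-06) from 2 counts in all at day 0 to 62 at day 4, a 30.4-fold difference with a counting interval of 8.07-fold to 257-fold (exact binomial, 95%), and did not exceed 0.35 FPKM. *Ppara*, listed at 0.11 FPKM or less, was not tested. Genes of the adipocyte state gave 9.91 early and 0.86 late for *Adipoq*, 8.81 and 0.30 for *Fabp4*, 3.50 and 0.51 for *Lpl*, and 9.81 and 1.26 for *Cfd*. *Dlk1*, the preadipocyte factor, fell by 2.13 early (adjusted p = 3.4e-14) and rose by 1.24 late (adjusted p = 9.3e-11). *Ucp1*, the uncoupling protein of brown fat, was listed at 0 at days 0 and 8 and averaged 0.040 FPKM at day 4. Of the 5 brown fat markers, 2 passed the filter, *Cox8b* and *Elovl3*, through their later days, as both held 0 counts at day 0. *Cox8b*, a subunit of cytochrome oxidase, held 1.84 ± 0.315 FPKM on day 4 and 12.2 ± 1.36 FPKM on day 8 (SD, n = 3). Its adjusted p was 6.5e-10 over the whole process. *Elovl3*, a fatty acid elongase, went from 0 to 0.427 and 0.310 FPKM (adjusted p = 1.5e-05). *Ucp1*, *Cidea* (0.26 FPKM or less) and *Dio2* (0.05 FPKM or less) were not tested.

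The genes whose pattern over the 9 samples was nearest to each tested gene were sought among 11467 genes of average log2 CPM of at least 1, by the root mean square difference of centred log2 CPM, where 0 would be the same pattern. For *Plin1* these were *Cfd*, the secreted protease adipsin (0.253), and *Gpd1*, which makes glycerol phosphate (0.348), and for *Cidec* the hormone gene *Retn* (0.246) and the fatty acid receptor gene *Cd36* (0.443). For *G0s2*, *Lgals12*, a galectin of adipocyte droplets, lay at 0.441. *Plin4* lay nearest to *Lpin1*, a phosphatidate phosphatase (0.0832), and *Pxmp4* (0.105). *Fitm2* lay nearest to the kinase genes *Pim3* (0.115) and *Pank3* (0.134), and *Bscl2* to *Acadvl*, a mitochondrial acyl-CoA dehydrogenase (0.0648), and *Dmpk* (0.0664). *Plin2* lay nearest to *Ddt* (0.0418) and *Nupr1* (0.0554), and *Plin3* to *Mfsd11* (0.0380) and *Zfp36l2* (0.0409). The distances are small for genes that move little, so they are not compared between genes.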

How the data were processed

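RNA-seq of 3T3-L1 cells at day 0, 4 and 8 was used (9 samples, 3 per day, grouped by title). The authors filtered the reads, mapped them and estimated expression with RSEM, and deposited for each gene and sample an expected count, not normalized, of which 29.8% are not whole numbers. The FPKM values, also deposited by the authors, are scaled to effective length and depth. The submitters' processing notes name CASAVA 1.4 and Bowtie2, and the genome build is not given in the sources used here. The labels name a BGIseq500 library kit and the paper an Illumina platform. Gene IDs matched the RefSeq table for 19040 of 19094 genes, and 26 symbols altered to dates were restored.

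Expected counts were rounded and tested with edgeR 4.0.16 in R 4.3.3 (filterByExpr, TMM factors of 0.954 to 1.05, glmQLFit and glmQLFTest with 1 coefficient per day). A gene was called at a Benjamini-Hochberg adjusted p under 0.05 over all tested genes and a fold change over 2. Log2 CPM values, used for the nearest patterns and the deviations of samples, carry a prior count of 2. Log2 fold changes come from edgeR's fit at its default prior count. Nothing states that replicates are separate cultures, so p-values measure the spread between these samples, which may be technical. Promoter sequences are from RefSeq, and shared stretches and overlaps from GENCODE vM21 transcripts. The 10 genes and all lists were chosen with earlier results of these data known. Named are the 10 genes, all transcription factors and adipocyte state genes listed, the 4 called genes of each droplet list with the largest change over the whole process, those a role needs, and the 2 nearest patterns, of which 1 gene is not reported here. Alternatives were other scalings and filters, a replicate block, leaving out each sample, DESeq2 1.42.0, edgeR's exact test, only the 2 days compared, and limma 3.58.1 on log2(FPKM + 1) and log2(FPKM + 0.1). Of the steps, the edgeR calls of the early phase were tested on simulated counts, with changes set only in genes well above the floor.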

Additional observations from a re-analysis of the deposited data

How the results depend on the processing

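Of the 10 droplet genes, 1 was called in the late phase, 0 with a filter of at least 10 counts in every sample, under which *Plin1* and *G0s2* were not tested, and 1 to 2 when single samples were left out. *Plin1* passed the 2-fold threshold at 1.02 without day 4 replicate 2 and at 1.03 without day 4 replicate 3. Of the other droplet genes, 4 were called in the late phase, 2 with at least 10 counts in every sample (37 genes tested) and 2 with limma on log2(FPKM + 1), where the cause was not tested. The other counts stayed within 1.5 times under all alternatives that could be run, and no log2 fold change that was called reversed. With the replicate number as a block, the droplet genes called remained 6 in the early phase, 1 in the late phase and 7 in the whole process, and 8 differed between the phases. Deviations from the day means correlated weakly between samples of the same number (mean 0.0307, with 0 of 9 pairs over 0.1). The mean correlation for other numbers was -0.0154. In 12 of 18 comparisons of a sample with another day, the correlation was highest at its own number. The 3 counts of the floor limit what can be said of *Plin5* and *Fitm1*, and day 0 values of *Plin1*, *Cidec* and *G0s2* rest on 3 to 27 counts.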

Other observations

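The nearest genes on either side of the droplet genes on the chromosome that the files list gave the following values. For *Dennd4c*, *Scarna8*, *Uhrf1*, *Jagn1*, *Gdap1l1* and *Hdgfrp2*, other RefSeq genes, not analysed here, come in between in the RefSeq order. *Hsd11b1*, which activates glucocorticoids inside the cell and lies beside *G0s2*, held 0.540 ± 0.185 FPKM at day 0 (SD, n = 3), then 43.2 ± 8.52 at day 4 and 138.5 ± 14.7 at day 8, with a log2 fold change of 6.37 early (adjusted p = 3.9e-13) and 1.73 late (adjusted p = 2.4e-09). On the other side of *G0s2*, *Lamb3* changed by 0.93 early (adjusted p = 0.0019) and 1.71 late (adjusted p = 8.5e-07). *Lrg1*, beside *Plin5*, rose by 5.88 early (adjusted p = 3.7e-11) to 3.78 ± 0.305 FPKM (SD, n = 3), while *Plin5* stayed below the floor. *Pex11a*, a peroxisomal gene beside *Plin1*, rose by 2.66 early (adjusted p = 1.1e-11), and *Kif7*, on the other side, fell by 0.39 (adjusted p = 4.0e-04). *Rpusd3* and *Jagn1*, around *Cidec*, rose by 2.01 (adjusted p = 2.1e-11) and 1.23 (adjusted p = 1.8e-10) early. *Ticam1* and *Dcaf11*, beside *Plin3* and *Fitm1*, rose by 0.61 (adjusted p = 3.1e-08) and 0.73 (adjusted p = 5.1e-08). Other neighbours fell early, with a log2 fold change of -1.15 for *Uhrf1* beside *Plin3* (adjusted p = 1.1e-08), -1.78 for *Gdap1l1* beside *Fitm2* (adjusted p = 4.2e-06, followed by a late rise of 1.05, adjusted p = 0.0029), -0.52 for *Lrrn4cl* beside *Bscl2* (adjusted p = 1.4e-04), -0.31 for *Psme1* beside *Fitm1* (adjusted p = 2.4e-04) and -0.15 for *Hdgfrp2* beside *Plin4* (adjusted p = 0.0088). The early log2 fold change was -0.02 for *Dennd4c* beside *Plin2* (adjusted p = 0.836) and 0.53 for *Gng3* beside *Bscl2* (adjusted p = 0.198), which then fell by 1.95 in the late phase (adjusted p = 0.0022), and *Scarna8* was not tested.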
